A study of Mus musculus with 15 samples.

Results

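Stat2, Usp18, Rtp4, Bst2, Ifit2, Irgm1 and B2m are interferon-induced genes, followed here through 15 RNA-seq libraries of mouse ventricular cardiomyocytes. They are 7 of the 9666 rows of the deposited table, picked by name because of their levels in the day 3 libraries, so those levels are given as a description and without a test. All 7 were in the table, and all 7 passed the filter on low values (at least 1 RPKM in at least 4 libraries). Usp18 passed only through its day 3 levels, since elsewhere it reached 1 RPKM only in adult replicates 1 and 4. The hearts came from C57BL/6 mice labelled wild type. There were 4 libraries of postnatal day 1 (P1), 4 of postnatal day 3 (P3) and 7 of adults aged 8 to 12 weeks. Ventricular cardiomyocytes were isolated at each age, total RNA was extracted and libraries were sequenced. The labels name no treatment, no infection and no altered allele in any group. They do not say whether libraries stem from different animals, and the p-values therefore describe the scatter among these libraries, part of which may be technical.

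Interferons are secreted proteins that cells release on sensing viral or misplaced nucleic acid. Type I interferon binds the receptor pair IFNAR1 and IFNAR2, whose kinases JAK1 and TYK2 phosphorylate STAT2. With IRF9 it is part of the complex ISGF3, which enters the nucleus and binds the interferon-stimulated response element. Interferon gamma acts through another receptor and a different element, the gamma-activated site. The genes switched on include antiviral effectors, the machinery of class I antigen presentation, and brakes on the pathway itself. In the heart this response is best known from viral myocarditis.

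The members take different places in this scheme. Stat2 encodes the ISGF3 subunit that transmits the type I signal. Usp18 encodes a protease that removes the ubiquitin-like protein ISG15 from its targets and also blocks signalling at IFNAR2. Rtp4 encodes a chaperone of G protein-coupled receptors that also restricts some viruses. Bst2 encodes tetherin, a membrane protein that holds budding virus particles on the cell surface. Ifit2 encodes an RNA-binding protein with tetratricopeptide repeats. Irgm1 encodes a member of the immunity-related GTPases, a family studied mainly in mice. B2m encodes beta-2-microglobulin, the invariant chain of class I molecules.

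All 7 are annotated as protein-coding genes in GENCODE on the mouse build GRCm38 (mm10). Stat2 lies on the plus strand at chr10:128270559-128292849, Usp18 on the plus strand at chr6:121245906-121270917, and Rtp4 on the plus strand at chr16:23520291-23614222. Bst2 lies on the minus strand at chr8:71534255-71537456, and Irgm1 on the minus strand at chr11:48861968-48871683. Ifit2 lies on the plus strand at chr19:34550694-34576419, and B2m on the plus strand at chr2:122147686-122153083. The members therefore sit on 7 different chromosomes.

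Promoter windows of 250 bases upstream of the transcription start were taken from RefSeq for build GRCm38.p6, and 5 of the 7 members had one. The windows are shown because most of them share a sequence known from interferon-induced genes. The members were picked by name as such genes, so the sharing is a description and no independent result. The searched core of the interferon-stimulated response element was GAAA, any 2 bases, and GAAA again, read on both strands (on the opposite strand it appears as TTTC, 2 bases and TTTC). This paired GAAA motif occurred in the windows of 4 of the 5 members, namely Bst2, Irgm1, Stat2 and B2m. Over all 27025 genes with a window, 3.46% held it. Among the 7613 genes of the table with a window the share was 2.75%. Capitals in the sequences below mark the matches.
B2m, plus strand, chr2:122147437-122147686: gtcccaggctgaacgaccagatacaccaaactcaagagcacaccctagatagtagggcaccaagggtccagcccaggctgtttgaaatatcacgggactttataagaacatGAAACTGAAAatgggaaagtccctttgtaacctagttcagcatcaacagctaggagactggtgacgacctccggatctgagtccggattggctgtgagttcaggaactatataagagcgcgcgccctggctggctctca
Bst2, minus strand, chr8:71537473-71537722: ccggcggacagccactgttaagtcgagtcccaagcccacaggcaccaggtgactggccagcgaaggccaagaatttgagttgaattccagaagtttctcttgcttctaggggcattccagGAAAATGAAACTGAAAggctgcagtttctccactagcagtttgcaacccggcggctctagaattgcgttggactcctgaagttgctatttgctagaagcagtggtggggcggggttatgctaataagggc
Stat2, plus strand, chr10:128270248-128270497: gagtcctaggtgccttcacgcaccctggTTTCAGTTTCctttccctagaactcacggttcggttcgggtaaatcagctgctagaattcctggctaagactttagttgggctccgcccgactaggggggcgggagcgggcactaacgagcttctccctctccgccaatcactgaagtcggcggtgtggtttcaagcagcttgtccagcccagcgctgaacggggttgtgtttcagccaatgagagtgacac
Irgm1, minus strand, chr11:48871428-48871457: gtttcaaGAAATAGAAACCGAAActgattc

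The B2m match spans bases -139 to -130 from the start. Bst2 carries 2 overlapping matches, from -130 to -121 and from -124 to -115. Irgm1 also carries 2 overlapping matches, from -30 to -21 and from -24 to -15. Only 30 bases of Irgm1 are shown, because the GENCODE gene reaches beyond the RefSeq start. The Stat2 match, from -222 to -213, reads on the opposite strand. With the given strand alone, 3 of the 5 members had a match. The core of the gamma-activated site, searched as TTCNNNGAA, which reads the same on both strands, was in 2 of the 5 members and in 8.13% of all genes. Ifit2 held it at -241 to -233 of 1 of its windows. Bst2 held it at -136 to -128, where it overlaps the paired GAAA match that starts at -130. A match is a string of letters in a window and not a measured binding site.

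The levels below are RPKM, read counts scaled by gene length and sequencing depth, as the authors deposited them. RPKM corrects for gene length, so levels can be set beside each other between genes. B2m had the highest level of the 7 genes in every library. Estimated depth ran from 10.5 to 11.3 in P1, from 9.47 to 13.6 in P3 and from 6.28 to 17.2 in adults, in units of 1000000 reads. In bulk RNA, fewer cells of a type and less RNA per cell cannot be told apart.

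**Figure D1:**
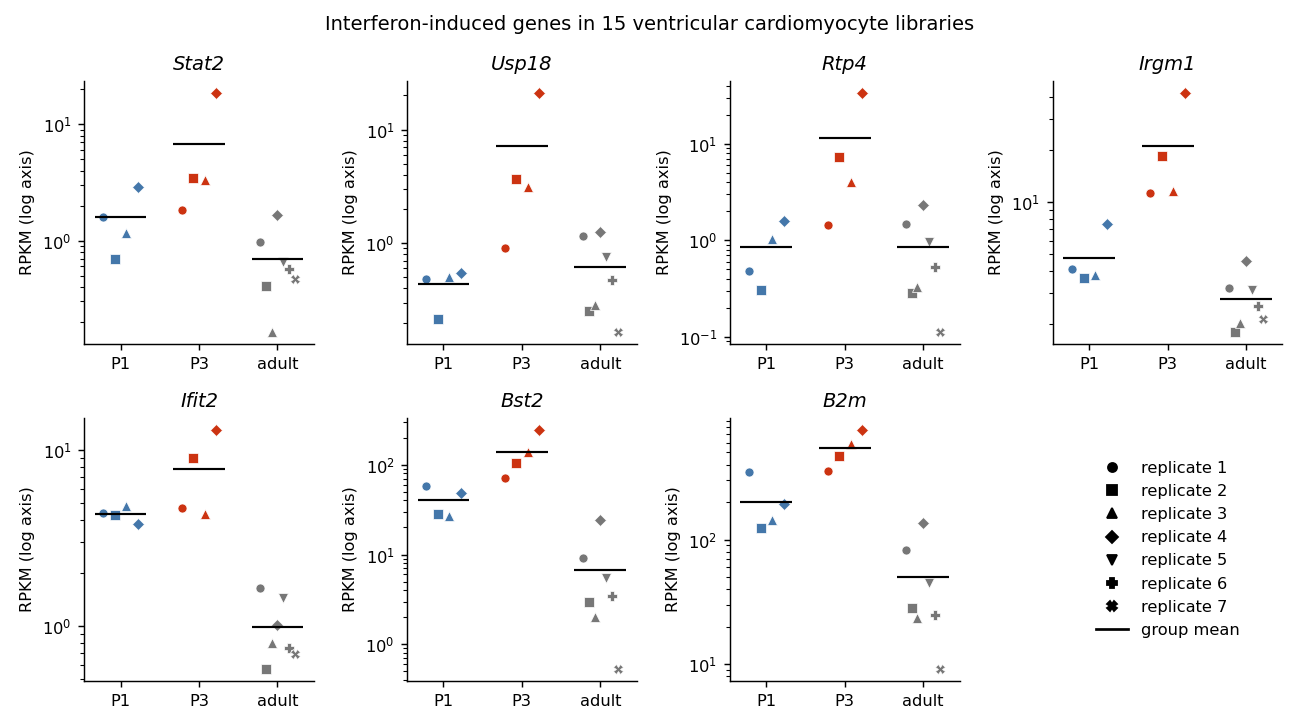
RPKM of each gene on a log axis, by age, with 1 symbol per library (shape gives the replicate number) and a line at the group mean. P3 replicate 4 (the diamond) is the highest of the 15 libraries in all 7 panels, and Usp18 reaches 20.98 RPKM there against 3.64 in the next library.

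The signal transducer Stat2 had 1.58, 0.691, 1.16 and 2.91 RPKM in P1 replicates 1 to 4. In P3 replicates 1 to 4 it had 1.82, 3.49, 3.35 and 18.6 RPKM. The 7 adult libraries ran from 0.163 to 1.67 RPKM with a median of 0.569. Replicate 4 stands far above the other P3 libraries, and P3 replicate 1 lies within the P1 range. The P3 and adult libraries do not overlap, but P1 overlaps both other ages.

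The brake Usp18 had 0.483, 0.214, 0.503 and 0.552 RPKM in P1, and 0.914, 3.64, 3.10 and 20.98 RPKM in P3. Adult libraries ran from 0.165 to 1.26 RPKM with a median of 0.471. Every P3 library was above every P1 library, while P3 replicate 1 fell inside the adult range. The recovered reads behind these values were 9, 4, 10 and 11 in P1, 22, 61, 66 and 381 in P3 and 5 to 23 in adults, so Usp18 was imprecise outside P3.

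Rtp4 ordered the P3 libraries as Usp18, Stat2 and Irgm1 did, with replicate 1 lowest, then replicates 3, 2 and 4. Its levels were 0.484, 0.302, 1.02 and 1.58 RPKM in P1 and 1.45, 7.32, 4.07 and 33.7 RPKM in P3. Adults ran from 0.111 to 2.33 RPKM with a median of 0.530. P3 replicate 1 lay below P1 replicate 4 and below the 2 highest adults, so P3 overlapped both other ages. Recovered reads of Rtp4 numbered 5 to 28 in P1, 31, 109, 77 and 544 in P3 and 3 to 26 in adults.

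Irgm1 had 4.14, 3.66, 3.80 and 7.50 RPKM in P1, and 11.2, 18.5, 11.5 and 42.4 RPKM in P3. Adults ran from 1.78 to 4.58 RPKM with a median of 2.54. All 4 P3 libraries were above all 11 others. P1 and adult libraries overlapped, since 3 P1 libraries lay below the highest adult.

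Ifit2 was the steadiest member at P1, with 4.41, 4.30, 4.83 and 3.80 RPKM. In P3 it had 4.68, 8.96, 4.33 and 13.0 RPKM, so P3 replicates 1 and 3 lay within the P1 range and replicates 2 and 4 above it. Adult libraries ran from 0.571 to 1.65 RPKM with a median of 0.802. Both neonatal ages were above every adult library.

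The surface proteins were the most abundant members. Bst2 had 57.4, 28.1, 26.9 and 48.9 RPKM in P1 and 71.5, 104, 138 and 245 RPKM in P3. Its 7 adult libraries ran from 0.533 to 24.1 RPKM with a median of 3.42. The 3 ages did not overlap for Bst2, in the order adult, P1 and P3. B2m had 346, 124, 143 and 191 RPKM in P1, 352, 465, 582 and 761 RPKM in P3, and 9.17 to 137 RPKM in adults with a median of 28.3. P3 was above both other ages for B2m, by a narrow margin over P1 replicate 1, and the lowest P1 library lay below the highest adult.

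The difference between P1 and adult is not made of day 3 values and is the comparison least tied to the choice of members. It is not free of that choice, since the members were picked with earlier results of these data known. Its p-values are given with that limit. Usp18, moreover, entered the test only because its P3 levels passed the filter. The test was limma across 9389 genes on log2(RPKM + 0.5), with Benjamini-Hochberg adjustment. A gene was called when its adjusted p was below 0.05 and its log2 change was 1 or more in size. Bst2, B2m and Ifit2 were higher in P1 than in adult libraries, and the other 4 members were not called. That is 3 of 7 members higher and 0 lower, where the shares among all tested genes were 62.7% higher and 4.32% lower. At an unadjusted p under 0.05 limma gave 4 members higher and 0 lower. This fit shares its estimate of the spread with the P3 libraries. With the P1 and adult libraries alone, limma again called 3 members higher and 0 lower, with 5 higher and 0 lower at an unadjusted p under 0.05. The median log2 change of the 7 was 0.78, beside 1.36 for all tested genes. The members were thus called higher in P1 no more often than genes at large.

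Bst2 averaged 40.3 ± 15.2 RPKM in P1 and 6.81 ± 8.13 RPKM in adults (SD, n = 4 and 7), a log2 change of 3.05 ± 0.59 (SE, limma adjusted p = 1.0e-04). B2m averaged 201 ± 100.5 RPKM in P1 and 49.9 ± 45.0 RPKM in adults, a log2 change of 2.35 ± 0.52 (limma adjusted p = 4.2e-04). Ifit2 averaged 4.33 ± 0.423 RPKM in P1 and 0.989 ± 0.407 RPKM in adults, a log2 change of 1.74 ± 0.26 (limma adjusted p = 6.1e-06). Two-sided exact permutation tests, with 330 arrangements of the P1 and adult labels, gave p = 0.0061 for Bst2, 0.015 for B2m and 0.0030 for Ifit2, the last being the smallest they can give. The same 3 members were called against adult replicates 1 to 4 alone and against adult replicates 5 to 7 alone, sets that differ in estimated depth.

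The remaining members differed less between P1 and adult. Stat2 averaged 1.58 ± 0.956 RPKM in P1 and 0.700 ± 0.493 RPKM in adults, with a log2 difference of 0.78 ± 0.44 (limma adjusted p = 0.10). Irgm1 averaged 4.78 ± 1.83 RPKM in P1 and 2.77 ± 0.967 RPKM in adults, with a log2 difference of 0.69 ± 0.32 (limma adjusted p = 0.052). The exact permutation p was 0.067 for Stat2 and 0.027 for Irgm1. Rtp4 averaged 0.846 ± 0.577 RPKM in P1 and 0.862 ± 0.801 RPKM in adults, with a log2 difference of 0.08 ± 0.56 (limma adjusted p = 0.90). For Usp18 the averages were 0.438 ± 0.152 RPKM in P1 and 0.620 ± 0.444 RPKM in adults, with a log2 difference of -0.18 ± 0.48 (limma adjusted p = 0.74).

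These differences sit on a shift of the whole table. The median tested gene was 1.36 higher in P1 than in adult on the log2 scale and 1.48 higher in P3 than in adult. Between P3 and P1 the shift was 0.09. When each library was centred on its median gene, Usp18 was lower in P1 than in adult by a log2 change of -1.63 and Rtp4 by -1.37, and limma called both. The exact permutation p of these centred values was 0.0030 for Usp18 and 0.015 for Rtp4. Before centring the differences were -0.18 for Usp18 and 0.08 for Rtp4, with exact permutation p of 0.55 and 0.85. The centred values of both thus mostly restate the shift of the table, at low read numbers, and show no fall of their RPKM. Which scale is the better one was not tested. On the centred scale Bst2 remained called higher, at 1.59, with an exact permutation p of 0.058. On that scale Ifit2 differed by 0.29 and B2m by 0.90, and neither was called, so their rise in RPKM also rests in part on the shift. Irgm1 and Stat2 changed sign on that scale, to -0.77 and -0.67, and were not called, with exact permutation p of 0.0091 and 0.070.

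**Figure D2:**
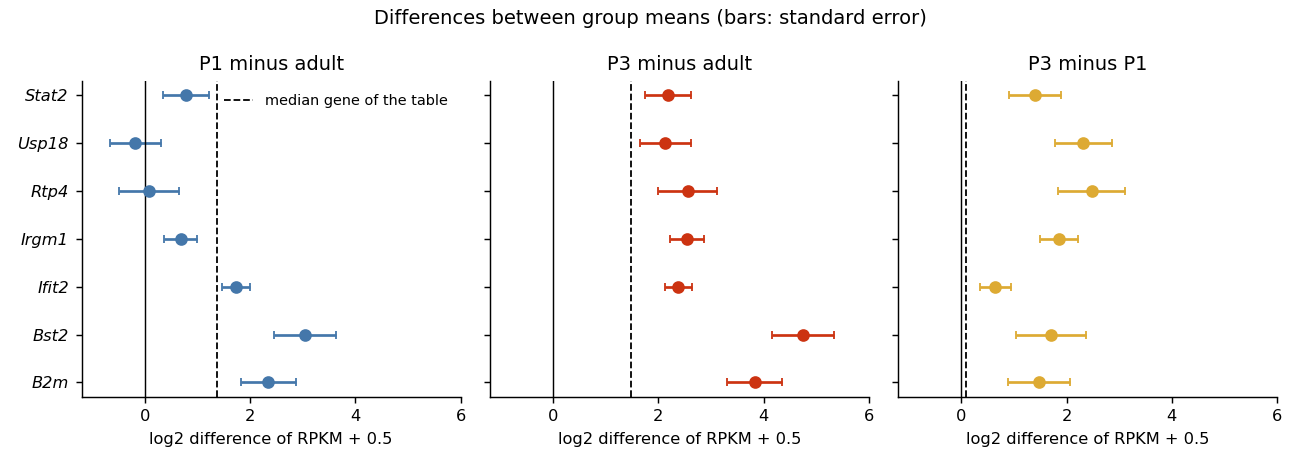
Log2 difference of each gene between group means of log2(RPKM + 0.5), with its standard error, in 3 comparisons; the dashed line is the median of all tested genes. Usp18 and Rtp4 lie near 0 in P1 minus adult, at -0.18 and 0.08, while all 7 members lie right of the dashed line in P3 minus adult and in P3 minus P1.

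In P3 all 7 members had their highest group mean, as their selection would give. P3 exceeded adult by log2 differences of 4.75 for Bst2, 3.83 for B2m, 2.56 for Rtp4, 2.54 for Irgm1, 2.38 for Ifit2, 2.18 for Stat2 and 2.14 for Usp18. Past the call limits were 7 of 7 members, beside 62.7% of all genes higher and 9.16% lower. P3 exceeded P1 by 2.48 for Rtp4, 2.31 for Usp18, 1.86 for Irgm1, 1.71 for Bst2, 1.48 for B2m, 1.40 for Stat2 and 0.64 for Ifit2. Past the same limits were 3 of 7 members, namely Rtp4, Usp18 and Irgm1, beside 1.40% of all genes higher and 5.31% lower. These comparisons share the P3 libraries, and both comparisons with adult share the adult libraries.

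Counting libraries rather than fitting means gave a related description. P3 did not overlap adult for 5 of 7 members, beside 64.3% of all tested genes on the higher side. P3 did not overlap P1 for 4 of 7 members, beside 10.7% of all genes. P1 did not overlap adult for 2 of 7 members, Bst2 and Ifit2, beside 65.1% of all genes.

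Much of the P3 mean came from a single library. P3 replicate 4 was the highest of the 15 libraries for 7 of 7 members, beside 19.7% of all 9666 genes. Its level was 5.77 times that of the next P3 library for Usp18, 5.34 times for Stat2, 4.61 times for Rtp4 and 2.30 times for Irgm1. For Bst2 the ratio was 1.78, for Ifit2 1.46 and for B2m 1.31. At least 2 times the next P3 library was reached by 4 of 7 members, beside 1.94% of all genes. The median gene was at 0.811 of the highest other P3 library.

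Without P3 replicate 4, the difference from adult was 1.40 for Usp18, 1.55 for Stat2 and 1.79 for Rtp4 on the log2 scale. Against P1, the difference without it was 1.57 for Usp18, 0.77 for Stat2 and 1.71 for Rtp4. The 3 members past the call limits against P1 became 2 without P3 replicate 4 or P3 replicate 2, 1 without P3 replicate 3, P1 replicate 2 or P1 replicate 3, and 4 without P3 replicate 1. These counts describe values the members were picked on and are no test. The other 3 P3 libraries were not alike either. Replicate 1 was the lowest P3 library for 6 members, the exception being Ifit2, and its Usp18 level was 0.914 RPKM against 3.64 in replicate 2 and 3.10 in replicate 3. Without replicate 1 the P3 excess over adult was 2.70 for Usp18 and 3.17 for Rtp4.

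**Figure D3:**
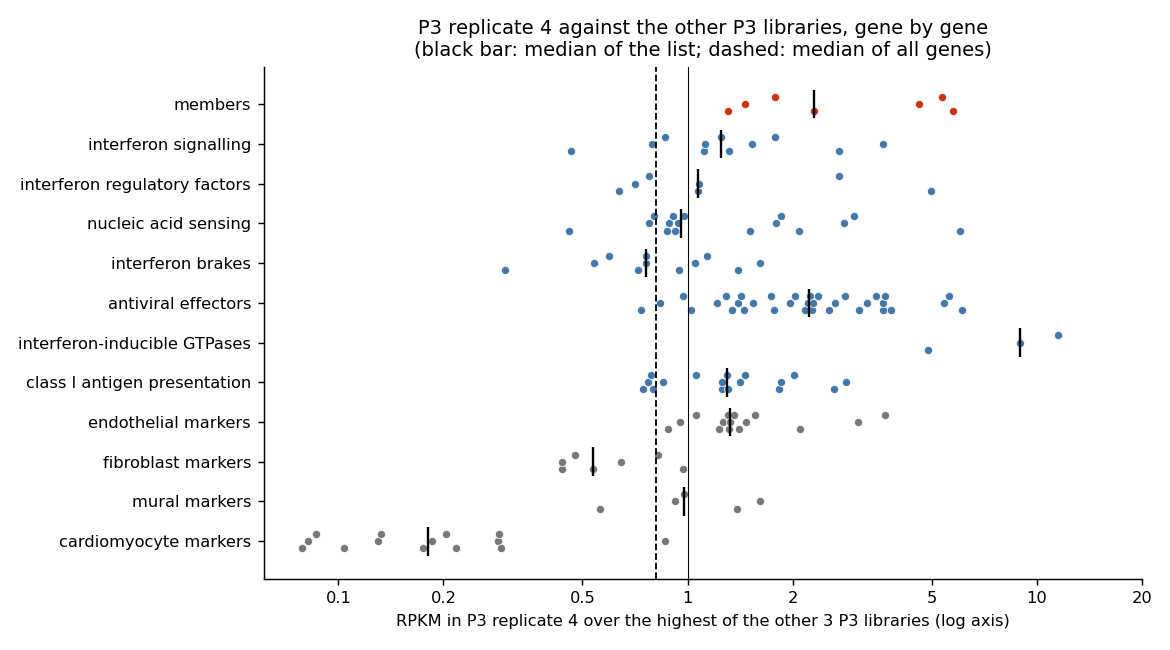
Each point is a gene, placed at its RPKM in P3 replicate 4 divided by the highest of the other 3 P3 libraries (log axis), by list; black bars are list medians and the dashed line is the median of all genes, 0.811. Members, antiviral effectors and interferon-inducible GTPases extend beyond a ratio of 5, as does a sensing gene, while cardiomyocyte markers lie at a median of 0.180.

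The other genes of the pathway were taken from 7 lists written from textbook knowledge, with earlier results of these data known. The lists hold 97 further genes in the table, 92 of them tested. Some of these, among them Helz2, Ifit3 and Tlr3, passed the filter only through their P3 levels. For the counts of the lists below, the share of all tested genes called higher was 62.7% in each comparison with adult and 1.40% in P3 against P1. In P1 against adult limma called 51 higher and 3 lower, with a median log2 change of 1.17 against 1.36 for all genes. In P3 against adult it called 71 higher and 3 lower, with a median of 1.84 against 1.48. In P3 against P1 it called 7 higher and 0 lower, with a median of 0.69 against 0.09. At an unadjusted p under 0.05 the last counts were 43 higher and 1 lower. The 7 calls depended on single libraries: without P3 replicate 4 there were 0, with 23 at an unadjusted p under 0.05, and without P3 replicate 1 there were 30. Without P3 replicate 3 or P1 replicate 2 the count was also 0, and it was 1 without P3 replicate 2 or P1 replicate 3, 3 without P1 replicate 4 and 15 without P1 replicate 1.

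Among the 10 tested signalling genes next to Stat2, 6 were higher in P1 than in adult and 8 in P3 than in adult, with 0 lower in either by limma. The receptor subunit Ifnar1 averaged 6.41 ± 0.737 RPKM in P1, 11.1 ± 3.83 RPKM in P3 and 1.15 ± 0.399 RPKM in adults (SD). Its log2 change was 2.10 ± 0.23 in P1 and 2.81 ± 0.22 in P3, each against adult (SE, limma adjusted p = 9.3e-08 and 1.6e-09). Irf9, which encodes the DNA-binding subunit of ISGF3, had 4.27, 8.29, 9.37 and 25.3 RPKM in P3, against 2.61 to 5.52 RPKM in P1. Its highest level was thus in P3 replicate 4, as for Stat2, and P3 replicate 1 lay inside the P1 range. In P3 against P1 only Ifngr1, a receptor subunit for interferon gamma, was called among the signalling genes, at 1.17 ± 0.34 (SE, limma adjusted p = 0.039).

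Of the 31 tested antiviral effectors beside Rtp4, Bst2 and Ifit2, 14 were higher in P1 than in adult, 28 in P3 than in adult and 4 in P3 than in P1, with 0 lower in each by limma. The 4 were Parp14, Helz2, Parp12 and Zc3hav1, and Zc3hav1 encodes the zinc-finger antiviral protein. Helz2 entered the test only through its P3 levels, since elsewhere it reached 1 RPKM only in P1 replicates 1, 3 and 4. Parp14 had 1.18, 3.99, 4.54 and 25.4 RPKM in P3, against 0.328 to 1.46 RPKM in P1. Ifitm3, which blocks virus entry at the endosome, was among those furthest above adult, with a log2 change of 4.00 ± 0.87 in P1 and 5.65 ± 0.87 in P3. P3 replicate 4 was the highest of the 15 libraries for 28 of the 34 effectors in the table, out of 69 listed, beside 19.7% of all genes.

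Ifit3, a paralog of Ifit2, was not called in P1. It entered the test only through its P3 levels, since elsewhere it reached 1 RPKM only in adult replicates 1, 4 and 5. It averaged 0.820 ± 0.166 RPKM in P1 and 1.25 ± 0.913 RPKM in adults (SD), a log2 difference of -0.26 ± 0.58 (limma adjusted p = 0.69). In P3 the libraries had 0.953, 5.87, 1.87 and 31.8 RPKM of Ifit3. How reads shared by such paralogs were counted is not stated, which makes the division of reads between Ifit2 and Ifit3, and between Irgm1 and its relatives, uncertain.

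Of the 16 interferon-inducible GTPases listed beside Irgm1, only 3 were in the table. These relatives of Irgm1 were lower in P1 than in adult, where Irgm1 was not called. All 3 tested, Iigp1, Igtp and Irgm2, were called lower, with log2 changes of -3.47 ± 0.49, -1.40 ± 0.45 and -1.18 ± 0.46 (SE, limma adjusted p = 2.8e-06, 0.0082 and 0.022). Iigp1 had 0.121 to 0.285 RPKM in P1 and 5.76 to 13.6 RPKM in adults. In P3 its levels were 0.306, 1.01, 0.665 and 11.7 RPKM, so that replicate 4 alone reached the adult range. Irgm2 had 0.900, 1.59, 1.46 and 14.2 RPKM in P3, and Igtp had 1.09, 2.57, 3.14 and 15.3 RPKM.

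Of the 16 tested genes that work with B2m in class I presentation, 8 were higher in P1 than in adult and 11 in P3 than in adult, with 0 lower by limma, where 62.7% of all genes were higher in each comparison. H2-K1, a class I heavy chain, had 48.2, 57.2, 79.1 and 103 RPKM in P3 against 26.1 to 42.3 RPKM in P1. The heavy chain H2-D1 had 53.0, 70.9, 84.6 and 106 RPKM in P3 against 17.2 to 32.3 RPKM in P1. Both kept the order of P3 libraries seen for B2m and Bst2, with replicate 1 lowest and replicate 4 highest.

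The counts of brakes and sensors called higher lay near the 62.7% of all genes. Beside Usp18, 8 of 11 tested brakes were higher in P1 than in adult and 8 in P3 than in adult. Nlrx1, which restrains antiviral signalling at mitochondria, was lower in P3, at -1.16 ± 0.23. Of the 16 sensing genes in the table, out of 28 listed, 10 were higher in P1 and 11 in P3, each against adult. Mavs, the mitochondrial adaptor of the RNA sensors, was lower in P3, at -1.30 ± 0.27. Adar, an RNA-editing enzyme, was called in P3 against P1, at 1.17 ± 0.29. Of 7 tested genes listed as interferon regulatory factors 6 were higher in P1 and 7 in P3, each against adult. That list includes Irf2bp1, Irf2bp2 and Irf2bpl, which encode binding partners of IRF2 and not such factors themselves. The gene not called in P1 was Irf7, at -0.43 ± 0.56.

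The members did not share 1 pattern across libraries. Likeness was measured by Pearson's r of log2(RPKM + 0.5) over the 15 libraries, as a description, since the libraries fall into 3 ages and share depth and scaling. Bst2 and B2m were most alike, at 0.99, and Usp18 and Rtp4 next, at 0.98. Of deviations from the group means, the same pairs had 0.97 and 0.96, while Ifit2 had 0.47 with Bst2 and 0.45 with B2m. Usp18, Rtp4, Stat2 and Irgm1 had 0.88 to 0.96 with each other on that measure.

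The non-member most like the mean of the members was Ddx58, which encodes the RNA sensor RIG-I, at 0.98, followed by Parp12, Il4ra and Irf9. Ddx58 had 2.51, 4.68, 8.10 and 24.2 RPKM in P3 against 1.17 to 3.31 RPKM in P1. By deviations from group means the order began with Slfn5 at 0.95, then Il4ra, Ifit3, Tor3a and Irf9. The remaining names on these lists of 8 were Plekhg1, St6gal1, Plxnd1 and Vash1 for levels and Ddx58, Mcf2l and Plxnd1 for deviations. Il4ra and Plxnd1, on both lists, are not in the pathway lists.

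Endothelial markers were highest in the P3 libraries, as the members were. The 15 endothelial markers in the table summed to 418 to 955 RPKM in P1, to 1426, 1564, 2456 and 3371 RPKM in P3 replicates 1 to 4, and to 10.5 to 1361 RPKM in adults. P3 replicate 4 was the highest library for 13 of the 15, beside 19.7% of all genes. Among adults, replicate 4 had the highest sum and replicate 7 the lowest, and the same libraries were highest and lowest for Bst2, B2m, Rtp4 and Usp18. Adult replicate 4 was high well beyond these genes. Of the adults it also had the highest RPKM sum over all genes, 280112, and the highest median gene, 3.52 RPKM. Its cardiomyocyte and fibroblast marker sums were the highest of the adults too. The order of the P3 libraries by the endothelial sum was also their order for Bst2 and B2m, but not for Usp18, Rtp4, Stat2, Irgm1 or Ifit2. The ratio of P3 replicate 4 to the highest other P3 library ran from 0.879 for Emcn to 3.68 for Sox18 over the endothelial markers, with a median of 1.32. Over the members it ran from 1.31 for B2m to 5.77 for Usp18, with a median of 2.30.

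Summed cardiomyocyte markers, 14 of 14 in the table, were 7251 to 16074 RPKM in P1, then 7918, 2054, 1267 and 1015 RPKM in P3 replicates 1 to 4, and 21412 to 41600 RPKM in adults. P3 replicates 2, 3 and 4 were thus below every P1 and adult library. Fibroblast markers, 7 of 12 in the table, summed to 190 to 1472 RPKM in P1, 404, 710, 824 and 558 RPKM in P3 replicates 1 to 4 and 6.55 to 144 RPKM in adults. Mural markers, 5 of 9, summed to 175 to 613 RPKM in P1, 545, 892, 676 and 613 RPKM in P3 replicates 1 to 4 and 32.9 to 123 RPKM in adults. P3 replicate 4 was the highest library for 0 of 7 fibroblast markers and 2 of 5 mural markers, beside 19.7% of all genes. None of the 32 listed immune cell markers was in the table, which holds only genes above 0.1 RPKM in every library, so immune cells were not analysed here. The part of these cells in the members' levels was not tested.

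**Figure D4:**
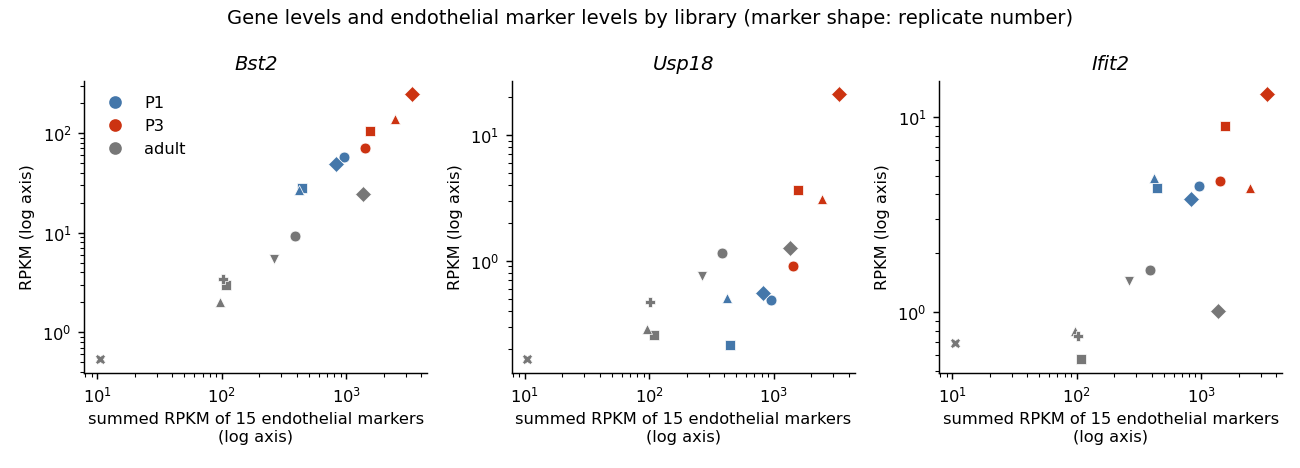
RPKM of Bst2, Usp18 and Ifit2 against the summed RPKM of 15 endothelial markers in each library, both on log axes, coloured by age with the shape giving the replicate number. Bst2 orders the P3 libraries as the marker sum does, from 71.5 to 245 RPKM, while Usp18 and Ifit2 do not.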

How the data were processed

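RPKM values, which the authors deposited in 1 table with a column for each of 15 libraries, give reads per kilobase and per 1000000 reads. Per the submitters' processing notes, HISAT2, Partek 6.6 and mouse build mm10 were used. Annotation, counting options and strandedness are unstated (not given in the sources used here). The lowest RPKM listed is 0.1001, so genes at or under 0.1 RPKM in any library are not analysed here.

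Whole reads were recovered from the steps of the RPKM values for 7841 genes (81.1%; relative tolerance 3e-05), which gave the depth estimates. Depth rests on counting 1 step as 1 read. Adult replicates 1 to 4 stepped in 2 units and the other libraries in 1.

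Genes with at least 1 RPKM in at least 4 libraries entered limma 3.58.1 (R 4.3.3) as log2(RPKM + 0.5), with 1 coefficient per age and an intensity trend in eBayes. Fold changes on this scale understate those of low genes. Tests were two-sided. On simulated data a planted log2 change of 1.5 was called in 90.5% of genes for P1 against adult, 90% for P3 against adult and 84.5% for P3 against P1. Of 9189 unchanged genes 7, 4 and 4 were called in these comparisons. The simulation changed 200 genes, gave each gene the same spread in all groups and held no shift of the whole table. The data differ in each of these, so the rates may not hold for them.

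The members and the gene lists were chosen with earlier results of these data known. Named genes are the members, up to 4 called genes per list, direction and comparison with the largest changes, and the 8 genes most like the members by each measure. Other pseudocounts, filters, scalings, a replicate block, subsets of adults and each library left out were tried as alternatives. Promoter windows came from RefSeq and positions from GENCODE.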

Additional observations from a re-analysis of the deposited data

Results flagged for a closer look

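A gap test on the highest and lowest library of each group (Dixon's, at its 95% critical values) was run for the members and the named pathway genes, 135 groups in all, and 24 stood out. Chance gives about 1 in 20 groups for independent genes with normally distributed values that were not picked on these values. The gaps were taken on RPKM rather than on a log scale, and a normal distribution of RPKM was not checked. The named genes were picked by called changes in these libraries and share them, so that rate is only a rough guide.

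In P3 replicate 4 was the library that stood apart, as the highest, in all 6 cases. For the members Usp18 at 20.98 RPKM and Stat2 at 18.6 RPKM this is a description and no test, since they were picked for their P3 levels, and the chance rate does not apply to them. The others were the antiviral effector Parp14 at 25.4 RPKM, and the GTPases Iigp1 at 11.7, Igtp at 15.3 and Irgm2 at 14.2 RPKM.

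Among adults, replicate 4 stood highest in 9 of 10 cases. The member Bst2 had 24.1 RPKM there. The others were Ifngr1 at 10.1, Irf3 at 6.91, Irf2bp1 at 4.07, Ifitm3 at 71.8, Shisa5 at 8.26, Lgals9 at 12.2, Pdia3 at 34.1 and Tapbp at 10.8 RPKM. Adult replicate 5 stood highest for Iigp1, at 13.6 RPKM.

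In P1 replicate 4 stood highest for the member Irgm1, at 7.50 RPKM. Replicate 1 stood highest for Irf2 at 6.97, Pias2 at 15.3, Socs5 at 22.98, Ifitm2 at 262.6, Pdia3 at 198 and Calr at 274.6 RPKM. Replicate 2 stood lowest for Irf9, at 2.61 RPKM.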

How the results depend on the processing

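Counts below are given for P1 against adult, then P3 against adult, then P3 against P1 where they moved by over 1.5 times; the cause of a move was not tested unless stated. Requiring 1 RPKM in all 15 libraries tests fewer genes, 2 members among them. It gave 1, 2 and 1 members higher, 23, 28 and 1 other pathway genes higher and 0 and 1 lower, and over all genes 3385, 3277 and 34 higher with 218 and 567 lower. For the comparisons with adult, quantile normalization gave 7 and 28 other pathway genes higher, 14 and 6 lower, and 1639 and 2342 genes higher with 1697 and 2174 lower. Median-of-ratios scaling gave 1 member higher in P1, 8 and 28 other pathway genes higher, 15 and 9 lower, 1562 and 2141 genes higher, 1856 and 2335 lower, and 81 genes higher in P3 against P1. An equal RPKM sum gave 29 other pathway genes higher and 7 lower in P1, with 3868 and 857 of all genes, and 13 other pathway genes and 247 genes higher in P3 against P1. Without the 100 highest genes in that sum, 16 and 45 other pathway genes were higher and 9 and 6 lower, with 2908 and 3619 genes higher and 1148 and 1610 lower.

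Centring on the median gene gave 1 and 2 members higher, 2 members lower in P1, 6 and 24 other pathway genes higher, 21 and 14 lower, and 1282 and 1797 genes higher with 2032 and 2547 lower. The centred P1 difference was -1.63 for Usp18, -1.37 for Rtp4, 1.59 for Bst2, 0.29 for Ifit2, -0.77 for Irgm1, -0.67 for Stat2 and 0.90 for B2m. The sign in P1 against adult also turned under quantile normalization for Irgm1 (-0.73), Rtp4 (-0.88) and Stat2 (-0.26), under median-of-ratios scaling for Irgm1 (-0.66), Rtp4 (-0.77) and Stat2 (-0.17), and under the equal sum without the 100 highest genes for Irgm1 (-0.19) and Rtp4 (-0.45). For Rtp4 it turned under the equal sum (-0.27) and against adult replicates 1 to 4 (-0.14).

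A pseudocount of 0.1 gave 5 other pathway genes lower in P1, and one of 1 gave 12 higher in P3 against P1. Replicate numbers did not pair the libraries, since deviations of same-numbered libraries correlated at -0.51 to 0.37. A library set against replicates 1 to 4 of another age fitted its own number best in 3 of 12 comparisons, the chance rate. The replicate block, on replicates 1 to 4, turned Rtp4 in P1 against adult to -0.14 and gave 1 other pathway gene lower in P3 against adult. In P3 against P1 the block gave 2 other pathway genes higher, 73 genes higher and 110 lower. Against adult replicates 1 to 4 alone, 1 other pathway gene was lower in P3. With these adults alone in the fit, P3 against P1 had 3 other pathway genes higher and 320 genes lower. With adult replicates 5 to 7 alone it had 5 members higher. With only P3 and P1 in the fit it had 3 other pathway genes higher and 86 genes lower.

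Leaving out single libraries kept 3 members higher in P1 against adult and 7 in P3 against adult, and gave 1 to 4 in P3 against P1, where 1 remained without P1 replicate 2, P1 replicate 3 or P3 replicate 3. Other pathway genes ranged from 48 to 57 higher and 3 to 4 lower in P1, 63 to 74 higher in P3 against adult, and 0 to 30 higher and 0 to 1 lower in P3 against P1. All genes ranged from 15 to 300 higher and 60 to 889 lower in P3 against P1. The Rtp4 difference between P1 and adult ranged from -0.16 to 0.30. Low read numbers limit Usp18 and Rtp4 in P1 and adult libraries.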
